A study of Mus musculus with 18 samples.

Results

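Expression of 8 genes that respond to stretch or injury of heart muscle was followed through the first 72 h of acute myocardial infarction (AMI) in mice. They were the muscle ankyrin repeat genes Ankrd1, Ankrd2 and Ankrd23, the muscle LIM protein gene Csrp3, the Xin repeat genes Xirp1 and Xirp2, the filamin C gene Flnc and the small GTPase gene Rrad. The members were taken by symbol, and each symbol matched 1 of the 24419 rows of the deposited table. Ankrd2 was chosen by its measured course, a peak at 6 to 24 h, so its values are given as a description with no test. The other 7 members were tested among 13333 genes. The mice were male C57BL/6 animals of 8 weeks, with no genetic change named in the labels. They received sodium pentobarbital, and AMI was made by tying off the proximal left anterior descending (LAD) artery. Poly(A) RNA of the infarcted left ventricle was sequenced in 6 groups of 3 mice, which were the sham group (control in the labels) and groups at 10 min, 1 h, 6 h, 24 h and 72 h. Whole tissue was used, so that fewer myocytes and less RNA of a gene per myocyte cannot be told apart.

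The muscle ankyrin repeat proteins, Ankrd1 (CARP), Ankrd2 (ARPP) and Ankrd23 (DARP), bind the elastic N2A region of titin in the I-band and can also be found in the nucleus. Ankrd1 is abundant in heart muscle and is a widely used sign of hypertrophy and load, whereas Ankrd2 is known mainly from slow skeletal muscle. Csrp3 encodes muscle LIM protein (MLP) of the Z-disc, a partner of telethonin and alpha-actinin. Xirp1 and Xirp2 encode actin-binding Xin proteins of the intercalated disc and of damaged myofibrils, and filamin C is an actin crosslinker that binds both Xin proteins and Z-disc proteins. Rrad encodes an RGK GTPase that restrains the L-type calcium channel through its beta subunit.

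By GENCODE release M21 on mm10, Ankrd1 lies on the minus strand of chromosome 19 from 36111961 to 36120099 and Ankrd2 on the plus strand of the same chromosome from 42036000 to 42045110. Ankrd23 lies on chromosome 1 (36530188 to 36536883, minus strand), Csrp3 on chromosome 7 (48830398 to 48848033, minus) and Flnc on chromosome 6 (29433256 to 29461883, plus). Xirp1 lies on chromosome 9 (120013755 to 120023598, minus), Xirp2 on chromosome 2 (67446002 to 67526614, plus) and Rrad on chromosome 8 (104628070 to 104631327, minus). The library was not described as strand-specific, and 4 members overlap another annotated gene. Xirp1 overlaps the Cx3cr1 locus on the same strand. Cx3cr1, a receptor gene of myeloid cells, had its lowest FPKM at 6 h, 0.164 to 0.214, where Xirp1 was highest, and its highest at 72 h, 9.80 to 11.7, where Xirp1 was lowest. The overlapping genes of Ankrd23 (Gm42417, same strand), Rrad (Gm33023, antisense) and Xirp2 (Gm13601, antisense) were not in the table, so that their reads cannot be told apart from those of the members.

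RefSeq promoters on GRCm38.p6 were found for 6 of the 8 members, all but Xirp1 and Rrad. The 250 bases before the start are shown for the members with the highest level (Ankrd1), the largest rise (Ankrd2) and a motif of muscle genes found in few promoters (Xirp2), 5′ to 3′ on the strand of the gene. Capitals mark matches on either strand to the M-CAT motif of TEAD factors (CATTCC), the E-box (CANNTG), the AP-1 motif (TGANTCA), the CArG box of SRF or the MEF2 box, and 2 E-boxes of Xirp2 overlap each other.
Ankrd1, chr19:36119845-36120094, minus strand: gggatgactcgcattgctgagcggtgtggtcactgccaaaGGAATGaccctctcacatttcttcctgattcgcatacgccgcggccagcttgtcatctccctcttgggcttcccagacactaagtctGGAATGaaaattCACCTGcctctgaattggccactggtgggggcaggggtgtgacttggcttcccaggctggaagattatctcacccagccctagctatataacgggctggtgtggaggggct
Ankrd2, chr19:42035777-42036026, plus strand: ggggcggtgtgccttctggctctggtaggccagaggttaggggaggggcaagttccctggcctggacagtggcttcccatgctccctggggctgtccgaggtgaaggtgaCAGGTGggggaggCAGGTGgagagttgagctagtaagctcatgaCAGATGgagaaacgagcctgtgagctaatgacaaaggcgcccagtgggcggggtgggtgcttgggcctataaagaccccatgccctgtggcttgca
Xirp2, chr2:67445752-67446001, plus strand: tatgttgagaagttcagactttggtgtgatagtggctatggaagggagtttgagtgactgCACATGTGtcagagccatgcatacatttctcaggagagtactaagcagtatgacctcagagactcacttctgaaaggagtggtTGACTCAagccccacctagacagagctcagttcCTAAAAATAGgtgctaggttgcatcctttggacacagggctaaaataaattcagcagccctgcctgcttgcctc
The Ankrd1 window held 2 M-CAT matches, 210 and 123 bases before the start, and 1 E-box. Of the promoters of 27025 symbols, 12.6% held an M-CAT match in a window of the same length and 1.02% held 2 or more. The Ankrd2 window held 3 E-boxes and none of the other motifs, and 66.0% of all promoters held an E-box. The Xirp2 window held 1 MEF2 box, which 0.518% of all promoters held, and 1 AP-1 match, which 6.87% held. Among the 6 members with a promoter, 1 held the M-CAT motif, 4 an E-box, 1 the AP-1 motif, 1 the MEF2 box and 0 the CArG box. The windows of Ankrd23 and Flnc held none of the 5 motifs. The distances hold for the RefSeq start only. By the GENCODE positions the Ankrd1 window lies inside the gene, and the Ankrd2 window ends at 42036026, past the start of the gene at 42036000. A match describes these letters only, and binding was not measured.

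Levels are given as FPKM, fragments scaled to transcript length and to the number of mapped fragments, which allows levels of different genes to be compared. A log2 difference is the difference between group means of log2(FPKM + 1), with its standard error (SE). A gene is called where limma gave a Benjamini-Hochberg adjusted p under 0.05 over all genes of that comparison. Each group of 3 mice was compared with sham and with the group before it, and the sham mice are shared by 5 of the 9 comparisons. With 3 mice against 3, an exact permutation test of a single gene cannot give a p below 0.1. The FPKM of a mouse summed to 542418 to 600467. Ratios of the lowest FPKM gave a depth of 0.813 to 1.32 relative to the first sham mouse, and the absolute depth is not known from this table. The cardiac identity of the tissue was plain from 10 cardiac myocyte markers, which summed to 67611 to 71670 FPKM in sham, whereas 9 of 10 fast skeletal muscle markers stayed under 1 FPKM in each sham mouse and 1 of them, Myh4, was at 0.

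Few members were called in the first hour, most were called higher at 6 h and 24 h, and at 72 h calls went in both directions. Against sham, 1 of 7 tested members was higher and 0 lower at 10 min, where 0.248% of all genes were called higher and 0.0978% lower. At 1 h 1 of 7 was higher and 0 lower, against 0.669% and 0.0526% of all genes. At 6 h 6 of 7 were higher (all but Csrp3) and 0 lower, and 11.6% of all genes were higher and 16.8% lower. At 24 h 6 of 7 were higher (all but Rrad) and 0 lower, and 26.2% of all genes were higher and 11.4% lower. These 2 times are the ones on which Ankrd2 was selected, so nothing is read from their counts. At 72 h 3 members were higher (Ankrd1, Ankrd23 and Xirp2) and 2 lower (Csrp3 and Xirp1), where 53.1% of all genes were higher and 24.2% lower. With 7 members, the count of 3 higher is close to the share of all genes. At 6 h, 24 h and 72 h the 7 members had a median log2 difference of 1.40, 1.63 and 0.004, beside -0.08, 0.13 and 0.29 over all genes tested.

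Between successive times, 0 members were higher and 1 lower (Ankrd23) at 1 h against 10 min, where 0.391% of all genes were higher and 0.211% lower. At 6 h against 1 h 6 of 7 were higher (all but Csrp3) and 0 lower, against 9.32% and 11.2% of all genes. Leaving out the first or the second 1 h mouse lowered that count to 3, and the count over all genes from 1241 higher to 629 and 458. At 24 h against 6 h 0 were higher and 1 lower (Rrad), against 12.5% and 1.94% of all genes. That one call was lost with the replicate block and when any of the 3 mice at 6 h or the second at 24 h was left out. At 72 h against 24 h 0 were higher and 6 of 7 lower (all but Rrad), against 29.7% and 13.5% of all genes. The median log2 difference of the members was -1.40 in this last step and that of all genes 0.13.

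**Figure D1:**
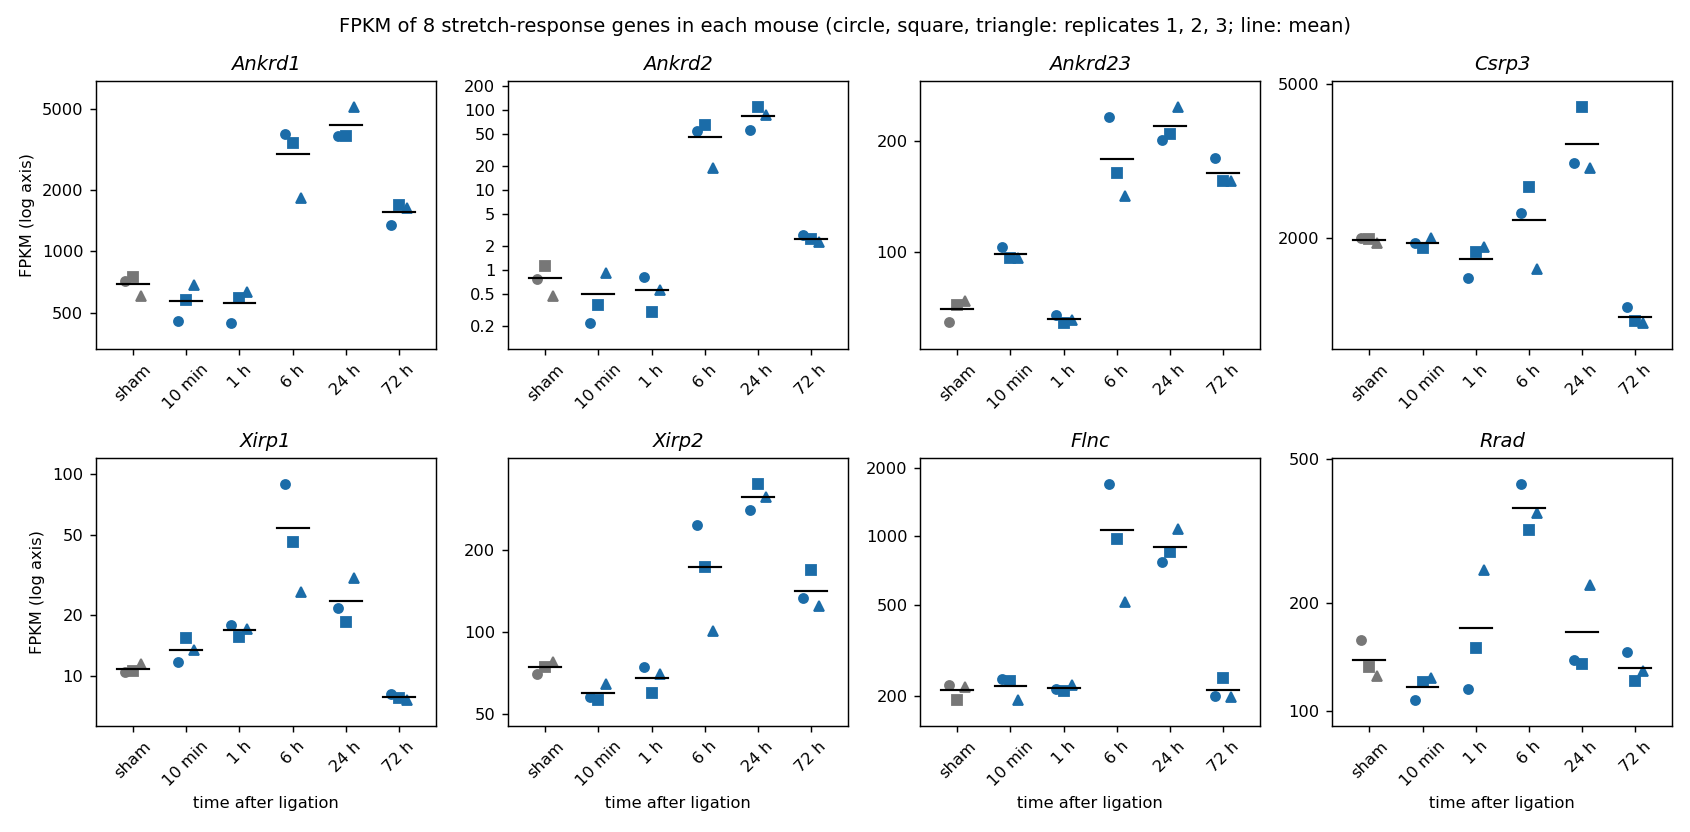
FPKM of the 8 genes in each of the 18 mice, on a log axis that differs between panels. Each symbol is a mouse (circle, square and triangle for replicates 1, 2 and 3) and each line a group mean of 3 mice. Ankrd2 stayed at or under 1.14 FPKM up to 1 h and had 19.2 to 110.2 FPKM at 6 h and 24 h, and Ankrd1, Ankrd23 and Xirp2 had not returned to sham at 72 h.

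Ankrd1 had 717, 744 and 604 FPKM in the 3 sham mice, 454, 578 and 685 at 10 min and 445, 592 and 632 at 1 h. These first 3 groups overlapped one another. At 6 h its FPKM was 3746, 3400.0 and 1834, at 24 h 3674, 3667 and 5090, and at 72 h 1353, 1678 and 1632. Each mouse of the 3 later groups lay above each sham mouse, and the 6 h and 24 h groups overlapped. The log2 difference from sham was 2.06 (SE 0.25, adjusted p = 0.00231) at 6 h, 2.58 (SE 0.16, adjusted p = 0.000825) at 24 h and 1.17 (SE 0.12, adjusted p = 2.83e-05) at 72 h. Mean FPKM was 4.35-fold, 6.02-fold and 2.26-fold that of sham. By mean FPKM Ankrd1 ranked 132 of 24419 symbols in sham and 8 at 24 h. The order of group means was 24 h, 6 h, 72 h, sham, 10 min and 1 h. Of the neighbours in this order, 24 h and 6 h did not differ past the threshold (log2 difference 0.52, 95% interval -0.15 to 1.19, adjusted p = 0.229). The fall from 24 h to 72 h was called (-1.40, SE 0.18, adjusted p = 0.000902).

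Ankrd2 went from close to nothing to a level within the range of the other members. Its FPKM was 0.774, 1.14 and 0.471 in sham, 0.216, 0.363 and 0.921 at 10 min and 0.826, 0.302 and 0.555 at 1 h. These 9 mice overlapped. At 6 h it was 55.6, 65.7 and 19.2, at 24 h 56.7, 110.2 and 86.4, and at 72 h 2.73, 2.47 and 2.24. All mice from 6 h on lay above all sham mice, and the third 6 h mouse had less than the other two. The mean FPKM was 58.9-fold that of sham at 6 h, 106-fold at 24 h and 3.12-fold at 72 h, with log2 differences of 4.58 (SE 0.42), 5.54 (SE 0.25) and 0.97 (SE 0.14). Between 24 h and 72 h the mean fell 34.1-fold. Among all symbols its rank by mean FPKM was 11770 in sham, 1042 at 24 h and 10929 at 72 h. Its sham level is near the pseudocount, and with 0.1 in place of 1 it was 5.60 at 6 h and 6.58 at 24 h. As Ankrd2 is known from skeletal muscle, markers of skeletal muscle were read beside it. The 10 fast skeletal markers summed to 6.97 to 10.3 FPKM in sham, 6.12 to 6.57 at 6 h and 7.69 to 18.7 at 24 h. The 3 slow skeletal markers summed to 19.6 to 25.5, 17.9 to 20.4 and 16.5 to 17.4 FPKM. Neither sum at 6 h lay above its sham range. The fast sum in the 3 mice at 24 h was 10.4, 18.7 and 7.69 FPKM, partly above sham. The second of these mice had both the highest fast sum and the highest Ankrd2, whereas the third had the lowest fast sum and more Ankrd2 than the first. At 24 h 8 of the 10 fast markers stayed under 1 FPKM in all mice, all but Tnnt3 and Casq1. The slow sum at 24 h lay below the sham range. At 72 h the fast sum was 16.5 to 24.3 FPKM, of which Tnnt3 had a mean of 12.4, and Ankrd2 was at 2.24 to 2.73. A part of skeletal muscle in the course of Ankrd2 was not tested.

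Ankrd23 differed from sham already in the first group. It had 64.3, 71.9 and 73.7 FPKM in sham, 103, 96.5 and 96.4 at 10 min, and 67.6, 64.0 and 65.4 at 1 h. Each 10 min mouse lay above each mouse of the other 2 groups. The log2 difference of 10 min against sham was 0.49 (SE 0.06, adjusted p = 0.0378), a call that was lost when any of the 6 mice was left out (adjusted p from 0.0577 to 0.126). The difference of 1 h against 10 min was -0.58 (SE 0.05, adjusted p = 0.00393) and was called without each of these mice in turn. The 6 h mice had 233, 164 and 142 FPKM, the 24 h mice 201, 209.8 and 248, and the 72 h mice 180.2, 156 and 156. All 9 lay above all sham mice, with log2 differences of 1.32 (SE 0.17, adjusted p = 0.0028), 1.63 (SE 0.11, adjusted p = 0.000894) and 1.22 (SE 0.08, adjusted p = 2.55e-06). The order of means was 24 h, 6 h, 72 h, 10 min, sham and 1 h, and 24 h against 6 h did not pass the threshold (0.32, 95% interval -0.14 to 0.77, adjusted p = 0.27). Ankrd39, the neighbour joined to Ankrd23 in the overlapping Gm42417 annotation, had 1.88 to 3.12 FPKM over all 18 mice.

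Csrp3 was abundant throughout and rose late. It had 1999, 1994 and 1940 FPKM in sham, 1946, 1888 and 2002 at 10 min and 1579, 1840 and 1892 at 1 h. The 6 h mice, at 2322, 2703 and 1662, lay on both sides of sham, and the log2 difference was 0.14 (95% interval -0.24 to 0.53, adjusted p = 0.53). Without the third 6 h mouse it was 0.34 and called (adjusted p = 0.0299). At 24 h FPKM was 3128, 4354 and 3029, all above sham (log2 difference 0.80, SE 0.16, adjusted p = 0.0115, and 0.0501 to 0.0543 without any 1 of the sham mice). At 72 h it was 1330, 1222 and 1207, all below sham (-0.66, SE 0.09, adjusted p = 0.000163). Csrp3 thus changed sides of sham between 24 h and 72 h, with a direct difference of -1.46 (SE 0.17, adjusted p = 0.000597). By mean FPKM it ranked 32 in sham, 9 at 24 h and 47 at 72 h. The highest mean was that of 24 h, followed by 6 h, sham, 10 min, 1 h and 72 h, and 24 h against 6 h had an adjusted p of 0.0839.

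The 2 Xin genes followed different courses. Xirp1 had 10.5, 10.5 and 11.5 FPKM in sham, 11.7, 15.3 and 13.5 at 10 min and 17.8, 15.6 and 17.1 at 1 h, with all AMI mice above all sham mice. It was the one member called at 1 h (log2 difference 0.59, SE 0.07, adjusted p = 0.0107). Without the first or the second sham mouse the adjusted p was 0.0638 and 0.0583. The 6 h mice had 89.7, 45.9 and 26.1 FPKM, a 3.44-fold range within the group, and the log2 difference was 2.04 (SE 0.38, adjusted p = 0.00922). At 24 h Xirp1 had 21.6, 18.5 and 30.4 FPKM (1.02, SE 0.17, adjusted p = 0.0076) and at 72 h 8.17, 7.78 and 7.61, below all sham mice (-0.42, SE 0.07, adjusted p = 0.000626). The order of means was 6 h, 24 h, 1 h, 10 min, sham and 72 h, and 24 h against 6 h was not called (-1.02, 95% interval -1.97 to -0.07, adjusted p = 0.118).

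Xirp2 had 70.5, 74.5 and 78.1 FPKM in sham, 57.9, 56.5 and 64.7 at 10 min and 74.3, 59.8 and 70.03 at 1 h. The 10 min mice lay below all sham mice, without a call (-0.31, 95% interval -0.47 to -0.16, adjusted p = 0.112). The 6 h mice had 247, 174 and 101 FPKM, the 24 h mice 280.5, 351 and 313, and the 72 h mice 133, 169 and 125. All of these lay above sham, with log2 differences of 1.13 (SE 0.28, adjusted p = 0.0248), 2.06 (SE 0.10, adjusted p = 0.000308) and 0.92 (SE 0.11, adjusted p = 7.52e-05). The call at 6 h was lost without any 1 sham mouse (adjusted p 0.0709 to 0.0824) and without the second 6 h mouse (0.0581). Its means stood in the order 24 h, 6 h, 72 h, sham, 1 h and 10 min. The 24 h mice all lay above the 6 h mice, with an adjusted p of 0.0696 for that difference.

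Within each mouse, the ratio of Xirp2 to Xirp1 FPKM was 6.71 to 7.08 in sham, 3.68 to 4.96 at 10 min, 3.84 to 4.18 at 1 h and 2.75 to 3.88 at 6 h. It was 10.3 to 19.0 at 24 h and 16.3 to 21.7 at 72 h. The ratio was thus below the sham range in all 9 mice up to 6 h and above it in all 6 mice of the later groups. An exact permutation test of such ratios at 1 time against sham could not go below 0.1.

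Flnc was flat for an hour and then rose, and was back at the sham level at 72 h. It had 223, 193 and 219 FPKM in sham, 237, 233 and 192 at 10 min and 214, 209 and 224 at 1 h, groups that overlapped. At 6 h it had 1701, 969.6 and 518 FPKM and at 24 h 769, 852 and 1076, all above sham. The log2 differences were 2.16 (SE 0.37, adjusted p = 0.00707) and 2.07 (SE 0.14, adjusted p = 0.000926), 5.03-fold and 4.25-fold by mean FPKM. At 72 h FPKM was 200.4, 239 and 198, and the difference from sham was 0.00 with a 95% interval of -0.22 to 0.23 (adjusted p = 0.971). The 24 h and 6 h groups did not differ past the threshold (-0.09, SE 0.39, adjusted p = 0.88), whereas the fall to 72 h was called (-2.07, SE 0.16, adjusted p = 9.24e-05). The ratio of Flnc to Flna, the filamin A gene of non-muscle cells, was 7.39 to 8.65 in sham, 22.5 to 56.5 at 6 h, 16.0 to 20.7 at 24 h and 2.30 to 2.77 at 72 h.

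Rrad had a peak at 6 h with little before or after. Its FPKM was 157, 133 and 125 in sham, 107, 120 and 123 at 10 min, and 115, 149 and 246 at 1 h. All 3 mice at 10 min lay below sham without a call (-0.24, 95% interval -0.45 to -0.02, adjusted p = 0.305). Only the third 1 h mouse lay above the sham range, and the difference of that group was 0.23 (95% interval -0.34 to 0.81, adjusted p = 0.738). At 6 h Rrad had 428, 318 and 355 FPKM (log2 difference 1.40, SE 0.13, adjusted p = 0.000902, 2.66-fold by mean FPKM). It then had 138, 135 and 223 FPKM at 24 h and 146, 121 and 129 at 72 h, both overlapping sham. The fall from 6 h to 24 h was -1.17 (SE 0.22, adjusted p = 0.023). The order of means was 6 h, 1 h, 24 h, sham, 72 h and 10 min.

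**Figure D2:**
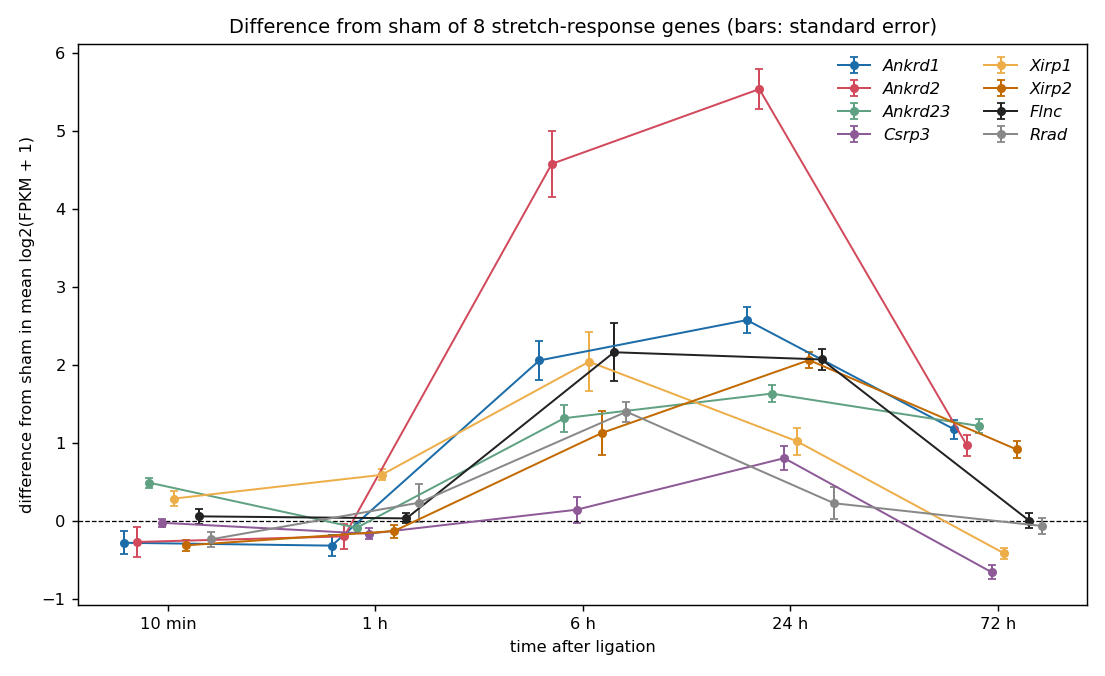
Difference from sham in mean log2(FPKM + 1) for each gene at 5 times after ligation, with the SE from 3 mice per group. At 24 h the differences ran from 0.23 for Rrad to 5.54 for Ankrd2, and at 72 h from -0.66 for Csrp3 to 1.22 for Ankrd23.

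In 6 of the 8 members, all but Ankrd2 and Rrad, the mice of the 6 h group had the widest relative spread of the 6 groups. The highest 6 h mouse had 3.44 times the lowest for Xirp1, 3.42 times for Ankrd2, 3.29 times for Flnc, 2.44 times for Xirp2 and 2.04 times for Ankrd1. In sham these ranges were 1.09, 2.42, 1.15, 1.11 and 1.23 times. The third 6 h mouse was the lowest of the 3 in 7 of the 8 members, all but Rrad, and the first was the highest in 6. Leukocyte markers summed to 1169, 245 and 566 FPKM in these 3 mice and cardiac myocyte markers to 56119, 67488 and 61435. S100a9 and S100a8 had means of 382 and 84.3 FPKM at 6 h, beside 660 for the leukocyte sum. Csf1r had a lower mean at 6 h than in sham (32.9 against 45.3), as had Adgre1 (0.862 against 1.28). Of the 8 leukocyte markers 3 were called higher and 1 lower at 6 h, beside 11.6% and 16.8% of all genes. The first mouse, the highest for most members, was also the highest for the leukocyte sum and the lowest for the myocyte sum. Rrad had the same order of the 3 mice as the leukocyte sum. The part of these markers in the spread was not tested.

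Cell type markers moved with time as well. The 10 cardiac myocyte markers summed to 67611 to 71670 FPKM in sham, 56119 to 67488 at 6 h, 41448 to 53430 at 24 h and 22877 to 29647 at 72 h. Of them 0, 3, 7 and 10 were called lower at 1 h, 6 h, 24 h and 72 h, and 0 higher. Of all genes 0.0526%, 16.8%, 11.4% and 24.2% were called lower at these times, and 0.669%, 11.6%, 26.2% and 53.1% higher. The 8 leukocyte markers summed to 189 to 213 FPKM in sham, 245 to 1169 at 6 h, 549 to 1552 at 24 h and 3437 to 4553 at 72 h. Of the 8, 3 were called higher and 1 lower at 6 h, and all 8 were called higher at 24 h and at 72 h. The 6 fibroblast markers went from 228 to 256 FPKM in sham to 3649 to 4780 at 72 h (6 of 6 higher), and the 5 smooth muscle markers from 194 to 249 to 567 to 731 (3 higher, 1 lower). For smooth muscle, 3 of 5 is near the share of all genes called higher. Mean FPKM of Acta2 rose from 71.3 to 232 and that of Tagln from 74.9 to 348, whereas Myh11 fell from 18.4 to 7.36. The 5 endothelial markers summed to 440 to 492 FPKM in sham and 372 to 478 at 72 h (3 lower). None of the markers of these 5 cell types was at 0 in all mice. The part of these shifts in the course of the members was not tested.

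Read against the mean of the 10 myocyte markers in the same mouse, each mouse from 6 h on stood above all sham mice for each member, except Csrp3 at 6 h. Its lowest 6 h mouse, at -1.06, lay under the sham range of -0.996 to -0.948 (log2, Csrp3 less markers). The difference from sham on this scale was 2.31, 4.83, 1.57, 0.40, 2.29, 1.38, 2.41 and 1.65 (log2) at 6 h for Ankrd1, Ankrd2, Ankrd23, Csrp3, Xirp1, Xirp2, Flnc and Rrad. At 72 h it was 2.76 for Ankrd1, 2.55 for Ankrd2, 2.80 for Ankrd23, 2.50 for Xirp2, 1.59 for Flnc, 1.52 for Rrad, 1.17 for Xirp1 and 0.93 for Csrp3. The sign of Csrp3, Xirp1 and Rrad at 72 h therefore turned with the scale, and 7 of 7 tested members were then called higher. On this scale 12873 of all 13333 genes were called higher at 72 h and 57 lower, so that count is not particular to the members. The same scale moved the median of all genes at 72 h from 0.29 to 1.87, so that Ankrd1, Ankrd23 and Xirp2 lay above the median gene and Flnc, Rrad, Xirp1 and Csrp3 below it. The scale assumes that the members are expressed in myocytes and that the markers keep their level per myocyte, which these data do not test. The markers did not fall alike. At 24 h Tnnt2 had a mean of 20151 FPKM against 22863 in sham, and Myh6 had 2259 against 5024.

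**Figure D3:**
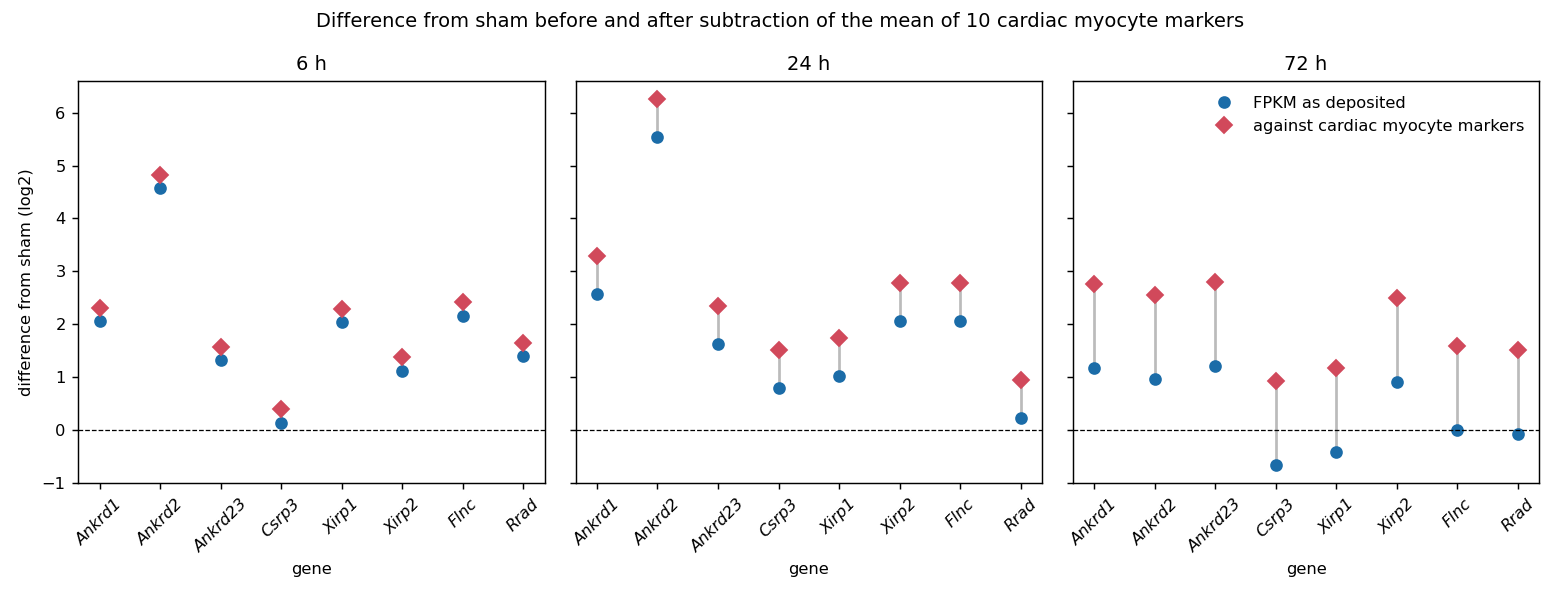
Difference from sham (log2) of each gene at 6 h, 24 h and 72 h, as deposited (circles) and after subtraction of the mean log2(FPKM + 1) of 10 cardiac myocyte markers in the same mouse (diamonds). The gap between the symbols is the fall of the markers, and at 72 h Csrp3 goes from -0.66 to 0.93 and Ankrd23 from 1.22 to 2.80.

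The levels of relatives shifted with the members. Ankrd1 had 653 to 1282 times the FPKM of Ankrd2 in sham, 51.8 to 95.5 times at 6 h, 33.3 to 64.8 times at 24 h and 496 to 729.8 times at 72 h. Against Ankrd23 the ratio was 8.20 to 11.2 in sham, 17.5 to 20.5 at 24 h and 7.51 to 10.8 at 72 h. Csrp1 and Csrp2, the LIM protein relatives of Csrp3 known from smooth muscle and activated mesenchymal cells, moved against it at the last time. Csrp1 had 88.4 ± 7.26 FPKM in sham and 311 ± 23.5 at 72 h (SD, n = 3, log2 difference 1.81, adjusted p = 2.92e-07). Csrp2 had 4.44 ± 0.843 and 54.0 ± 7.36 (3.34, adjusted p = 1.13e-07). The ratio of Csrp3 to Csrp2 was 370.2 to 560.3 in sham and 19.5 to 25.7 at 72 h. Gem, another RGK GTPase gene, was called at 1 h (log2 difference 1.14, SE 0.18, adjusted p = 0.0401), where Rrad was not, and not at 6 h (0.91, adjusted p = 0.063). The ratio of Rrad to Gem was 21.1 to 41.7 in sham and 10.1 to 20.2 at 1 h.

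**Figure D4:**
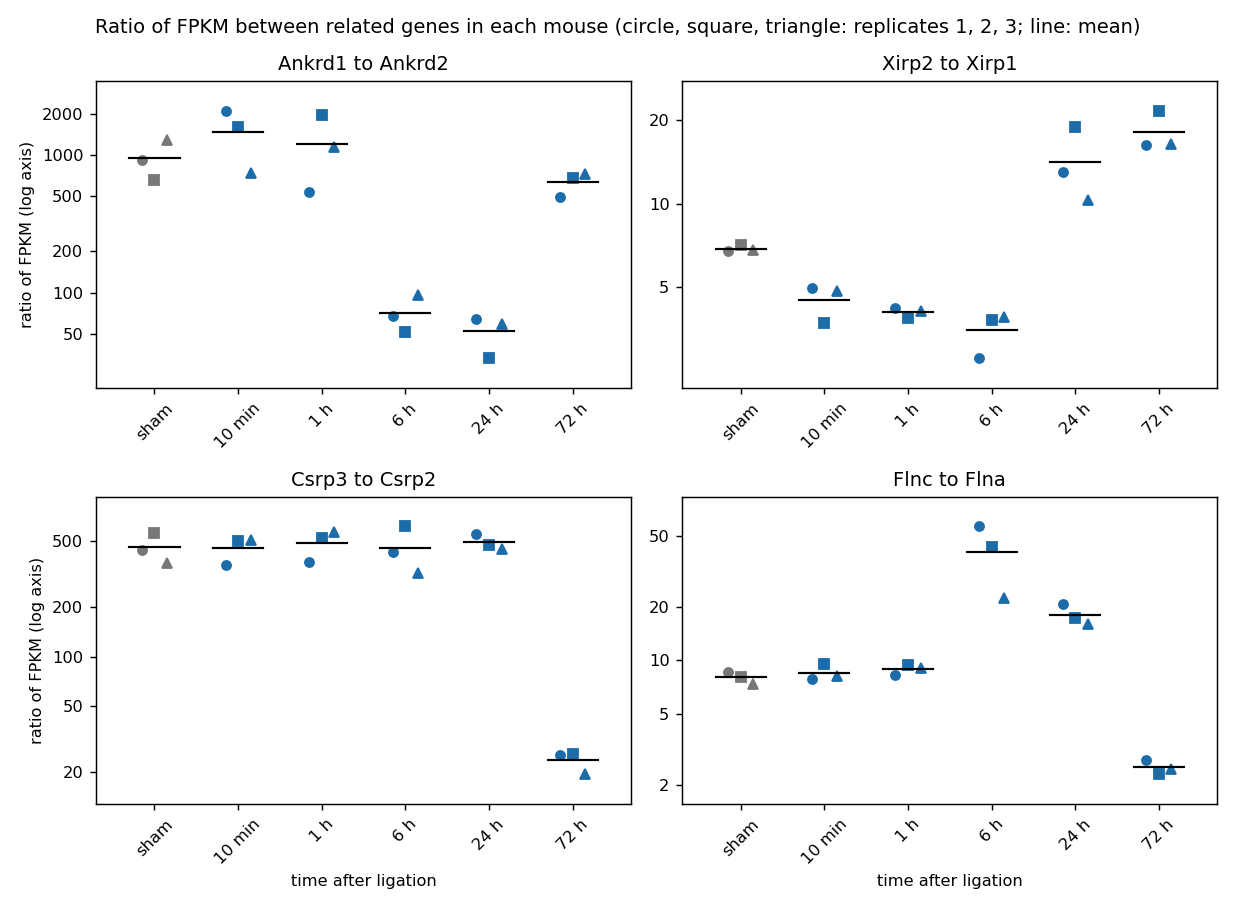
Ratio of FPKM between related genes in each mouse, on a log axis that differs between panels (circle, square and triangle for replicates 1, 2 and 3, line for the group mean). Xirp2 to Xirp1 runs from 2.75 at 6 h to 21.7 at 72 h, and Csrp3 to Csrp2 drops to between 19.5 and 25.7 at 72 h.

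The counts in the lists that follow are to be read beside those over all genes, of which 11.6%, 26.2% and 53.1% were called higher and 16.8%, 11.4% and 24.2% lower at 6 h, 24 h and 72 h. The median log2 difference of all genes was -0.08, 0.13 and 0.29. Among the partners of the ankyrin repeat proteins at titin, 10 genes, 9 were tested, and Capn3 (calpain 3) was under the filter. Of the 9, 0 were called at 10 min and 1 h, 2 were higher at 6 h and 24 h and 7 were lower at 72 h, with 0 in the other direction. The higher ones were Cryab, a small heat shock protein of the sarcomere, and Des, the desmin gene. Cryab had 1696 ± 110 FPKM in sham, 2438 ± 401 at 6 h and 3431 ± 528 at 24 h (SD, n = 3, log2 differences 0.51 and 1.01, adjusted p = 0.0252 and 0.00507), and was among the 7 lower at 72 h. Ttn itself was 497 ± 127 FPKM in sham, 378 ± 84.4 at 6 h, 344 ± 82.5 at 24 h and 229 ± 31.4 at 72 h. It was called at 72 h (-1.09, SE 0.19, adjusted p = 0.00079) and not at 6 h (adjusted p = 0.229) or 24 h (adjusted p = 0.126). Mypn, the gene of myopalladin, which ties Ankrd1 to the N2A region, was lower at 72 h (-1.22, SE 0.08, adjusted p = 1.47e-06). The ubiquitin ligase genes Trim54, Trim55 and Trim63 fell too (-1.84, -0.76 and -0.84). The median of the list at 72 h was -0.76, beside 0.29 for all genes.

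Of 13 Z-disc genes around muscle LIM protein, those called numbered 3 higher and 2 lower in the 6 h mice, 6 higher and 2 lower in the 24 h mice, and 6 in each direction in the 72 h mice. In all genes the shares higher were 11.6%, 26.2% and 53.1% and those lower 16.8%, 11.4% and 24.2%, so that 6 of 13 higher at 72 h is not above the share of all genes. The list's median log2 difference was 0.05, 0.05 and -0.31. Fhl1, a LIM protein of the titin N2B region, had the largest rise of the list at 6 h and 24 h, and Csrp2, given above, that at 72 h. Fhl1 went from 60.5 ± 3.07 FPKM in sham to 227 ± 69.9 at 6 h, 581 ± 121 at 24 h and 149 ± 30.0 at 72 h (log2 differences 1.84, 3.22 and 1.27, adjusted p = 0.00214, 0.000234 and 2.46e-05). Its relative Fhl2 fell from 946 ± 31.4 to 657 ± 122 FPKM at 6 h (-0.54, adjusted p = 0.0215). Tcap, which encodes telethonin, fell from 2425 ± 132 FPKM to 1223 ± 204 at 24 h and 404 ± 104 at 72 h (adjusted p = 0.00519 and 1.69e-06). Actn2, alpha-actinin 2, did not pass the threshold at 6 h (0.05, adjusted p = 0.666) or 24 h (0.005, adjusted p = 0.974) and was lower at 72 h (-1.23, adjusted p = 4.72e-06). Those higher at 72 h were Csrp1, Csrp2, Fhl1, Ilk, Pdlim3 and Pdlim5.

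Of the 13 partners of Xin proteins and filamins, 3, 5 and 7 were higher and 4, 2 and 5 lower at 6 h, 24 h and 72 h, and the median log2 difference was 0.13, 0.41 and 0.34. At 72 h 7 of 13 is near the 53.1% of all genes called higher, and at 24 h 2 of 13 is near the 11.4% called lower. Synpo2l, which encodes a Z-disc protein of the synaptopodin family, rose from 17.8 ± 0.575 FPKM to 54.7 ± 25.9 at 6 h and 57.3 ± 12.3 at 24 h (log2 differences 1.45 and 1.61, adjusted p = 0.0177 and 0.00178). Vcl (vinculin) and Vasp, both of actin anchorage, rose at 6 h by 0.60 and 0.59 (adjusted p = 0.0116 and 0.0257). Cdh2, the N-cadherin of the intercalated disc, was lower at 6 h (-0.22, adjusted p = 0.0389), higher at 24 h (0.46, adjusted p = 0.00619) and lower at 72 h (-0.38, adjusted p = 0.00232). Among 8 genes of the chaperone route that clears damaged filamin, 2 were higher and 1 lower in both the 6 h and the 24 h comparison, and 0 were higher and 4 lower in that of 72 h. At 24 h these counts are near the 26.2% and 11.4% of all genes, and at 72 h the shares of all genes were 53.1% and 24.2%. The median of these 8 genes was 0.08, 0.10 and -0.14. Hspb1 rose from 651 ± 51.8 FPKM to 2988 ± 1253 at 6 h and 3481 ± 712 at 24 h (adjusted p = 0.00356 and 0.000926). Bag3, the co-chaperone at the core of the route, did not pass at 6 h (0.18, adjusted p = 0.38) or 24 h (-0.04, adjusted p = 0.718) and fell at 72 h (-0.80, adjusted p = 3.35e-05).

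Of 5 tested genes of RGK GTPases and the L-type channel (Rem2 was under the filter), 1 was higher at 1 h (Gem), 1 lower at 6 h (Rem1), 0 were called at 24 h, and 1 was higher and 3 were lower at 72 h, where 53.1% and 24.2% of all genes were called. The median of the 5 was -0.36, -0.06 and -0.90 at 6 h, 24 h and 72 h. The 3 channel genes Cacna1c, Cacnb2 and Cacna2d1 were the ones lower at 72 h (-0.98, -0.90 and -0.91). A list of 13 genes of mechanical load and of YAP/TEAD or SRF had 0, 2, 5, 7 and 7 higher at 10 min, 1 h, 6 h, 24 h and 72 h, and 2 lower at 72 h. In all genes 0.248%, 0.669%, 11.6%, 26.2% and 53.1% were called higher, so that 7 of 13 at 72 h is near the share of all genes. The median of the list was 0.49, 0.44 and 0.22 at 6 h, 24 h and 72 h. Its earliest members were Cyr61 and Ctgf, matricellular protein genes and targets of YAP and TEAD. Cyr61 had 21.6 FPKM in sham, 177 at 1 h and 177 at 6 h as means of 3 mice (log2 differences 2.96 and 2.84, adjusted p = 0.000127 and 0.00263). Ctgf had 27.8, 75.0 and 333 FPKM (1.39 and 3.41, adjusted p = 0.00143 and 0.00123). Nppb, the B-type natriuretic peptide gene, was higher at 6 h (2.55, SE 0.39, adjusted p = 0.00485), whereas Nppa was not called until 24 h (2.45, SE 0.31, adjusted p = 0.00413, and 0.316 at 6 h). The list also holds the factors themselves. Mkl1, which encodes the SRF cofactor MRTF-A, rose from 2.77 ± 0.137 FPKM in sham to 8.68 ± 0.745 at 72 h (SD, n = 3, log2 difference 1.36, adjusted p = 1.37e-06) and was not called at 6 h (adjusted p = 0.916) or 24 h (adjusted p = 0.0749). Tead1, Srf and Wwtr1 did not pass the threshold at any of these 3 times, and Yap1 had log2 differences of 0.35 at 6 h and -0.19 at 72 h, both called.

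**Figure D5:**
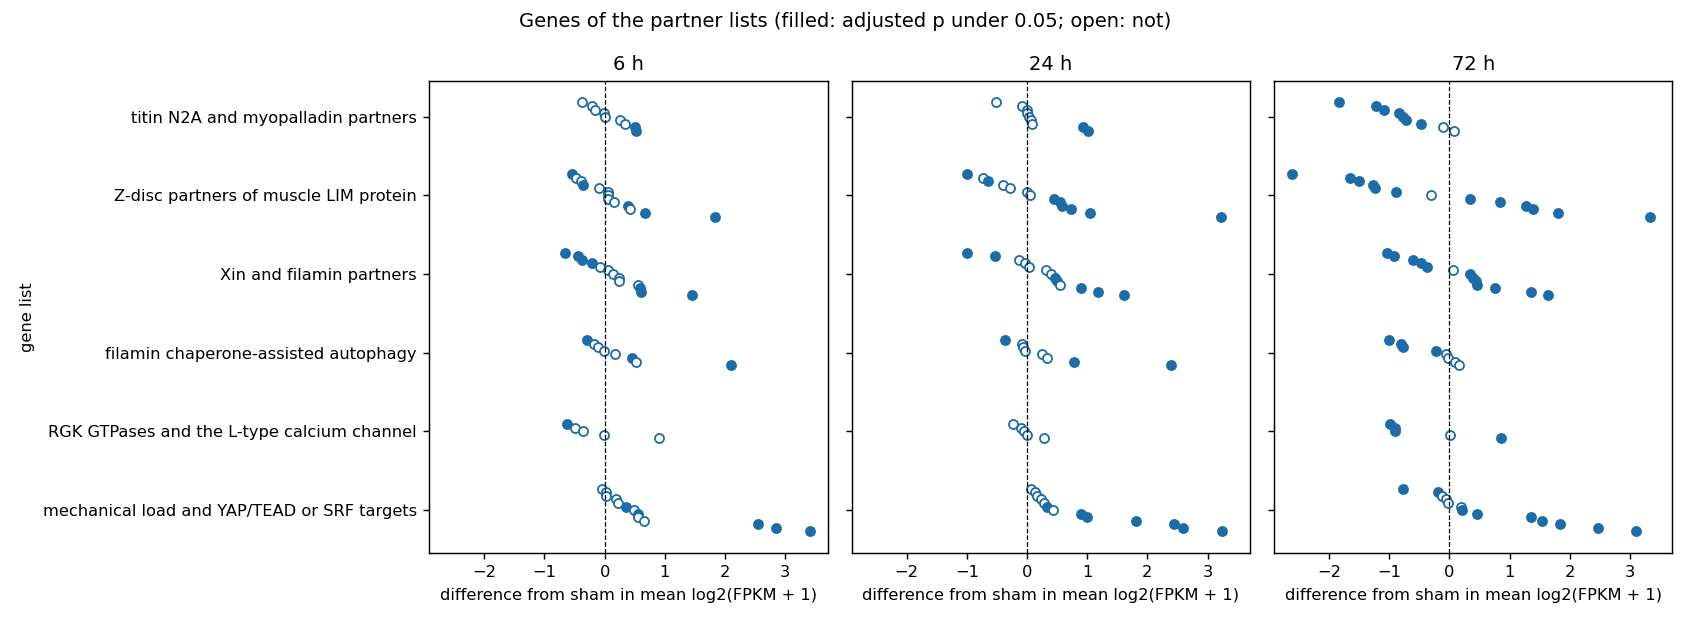
Difference from sham in mean log2(FPKM + 1) of each gene of 6 partner lists at 6 h, 24 h and 72 h, 1 point per gene (filled where the adjusted p was under 0.05). At 72 h 7 of 9 titin partners lie to the left with a call, and the Z-disc list splits into 6 genes on each side.

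Genes with the most similar course were sought for each member by the mean absolute gap, over the 5 times, between their log2 differences from sham, which uses the same values as the results above and is a description. Hilpda was closest to Ankrd1 (gap 0.18), followed by Fpr2 and Slc7a11. For Ankrd2 the gaps were wider, 0.51 for Cxcl3, 0.56 for Lcn2 and 0.73 for Gm5483. Among the genes closest to Ankrd23 were Ifitm10 (0.18) and Asns (0.19). Csrp3 was followed most closely by Egln3, Cfl2 and Hspb2 (0.11 to 0.13) and Xirp1 by Map3k6, Agt and Stc1 (0.12 to 0.21). For Xirp2 the closest were Rras2, Srgn and Ccl17 (0.16 to 0.18), for Flnc Cd177, Hspb1 and Retnlg (0.20 to 0.26) and for Rrad Mir212, Rnf39 and Fas (0.12 to 0.15). Within the 8 members the closest pairs were Ankrd23 with Xirp2 (0.35) and Ankrd1 with Xirp2 (0.38), and the member closest to Ankrd2 was Ankrd1 (1.16).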

How the data were processed

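RNA-seq of left ventricle from 18 mice was analysed, 3 in each of 6 groups named by the sample titles, and the labels' control is the study's sham. FPKM per gene symbol were deposited by the authors, from reads trimmed with cutadapt 1.18, mapped to mm10 with HISAT2 2.1.0 and assembled with StringTie 1.3.4d. The annotation is not given in the sources used here. The deposited FPKM were used without further scaling, since no counts were analysed here. Symbols with at least 1 FPKM in at least 1 mouse were kept (13333 of 24419, of which those constant in a comparison were left out of it), and log2(FPKM + 1) was compared in R 4.3.3 with limma 3.58.1 (lmFit, eBayes with a variance trend, two-sided, Benjamini-Hochberg adjustment over all genes of a comparison), on the 6 mice of the 2 groups. The pseudocount shrinks differences of low genes. P-values set a difference between groups against the spread between mice, with the variance of each gene moderated by a trend over all genes. The members and gene lists were chosen with earlier results of these data known. Named genes were the 8 members, list genes called in or with the largest change of a comparison, and the 3 genes nearest to each member in course, of which 1 is not reported here. Data were simulated with the sham spread in both groups. Shifts of 1 or 2 log2 units were placed in genes with a mean log2(FPKM + 1) above 3. Of these data, 195 of 200 changed genes and 5 of 13133 unchanged genes were called. The wider spread at 6 h was not simulated, so these shares do not carry over to that group. Alternatives were a pseudocount of 0.1, 2 other filters, median-of-ratios, quantile and myocyte-marker scaling, 1 fit of all 18 mice, a replicate block, no variance trend and each mouse left out. Same-numbered mice did not deviate together (4 of 27 correlations above 0.1, from -0.33 to 0.41), so numbers were not taken as pairs. Symbols from A to E carry more digits than the rest (4410 rows, 4 members); the medians of the blocks differed by at most 0.06 (log2) between mice. Motifs and figures used Python 3.11.15 and matplotlib 3.10.9.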

Additional observations from a re-analysis of the deposited data

Results flagged for a closer look

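Csrp3 was above sham at 24 h and Xirp1 at 1 h, 6 h and 24 h, and both were below it at 72 h, each past the threshold of limma with Benjamini-Hochberg adjustment, and the direct difference between those times was tested. Csrp3 was -1.46 lower (log2, SE 0.17, adjusted p = 0.000597) at 72 h than at 24 h, with all 3 mice at 72 h below all 3 at 24 h. Xirp1 was lower at 72 h than at 1 h (-1.01, adjusted p = 5.44e-06), at 6 h (-2.46, adjusted p = 0.000494) and at 24 h (-1.44, adjusted p = 0.000756). The 10 cardiac myocyte markers fell over the same times, and their part in these differences was not tested. Relative to those markers both genes stood above sham at 72 h, by 0.93 and 1.17.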

How the results depend on the processing

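All members of which a call was made kept their direction under each alternative, except as follows. Centring on myocyte markers turned Csrp3 (0.93), Xirp1 (1.17) and Rrad (1.52) upward at 72 h against sham and Ankrd23 at 72 h against 24 h (0.46). It gave 7 members higher and 0 lower at 72 h, where 12873 of 13333 genes were higher and 57 lower. At 24 h against 6 h centring gave 4 members higher and 0 lower, where 6123 genes were higher and 47 lower. At 72 h against 24 h 2 members were lower, where 57 genes were lower and 10234 higher. Median-of-ratios scaling gave Flnc -0.31 at 72 h (adjusted p = 0.0157) and 4 members lower there, where 4752 of 13329 genes were lower. The median of all genes at 72 h was 0.29, and 0.04, -0.12 and 1.87 under median-of-ratios, quantile and myocyte-marker scaling. No member was higher at 10 min without the filter, with 1 fit of 18 mice, with a replicate block, without the variance trend or with 1 mouse left out (0 to 0). Over all genes these first 4 settings gave 1, 3, 18 and 5 higher at 10 min, and the runs without 1 mouse 0 to 47. So few calls over all genes leave little to read from the 0 members. The fit of 18 mice gave 0 higher at 1 h, 0 lower at 1 h against 10 min, 1 lower at 72 h, and 2 higher and 2 lower at 24 h against 6 h, where quantile normalization gave 1 higher and the replicate block 0 lower. In that fit 51 of 13333 genes were higher at 1 h and 12 lower at 1 h against 10 min. It gave 2982 genes lower at 72 h, and 4848 higher and 1002 lower at 24 h against 6 h. Quantile normalization gave 371 of 13331 genes higher at 24 h against 6 h. The replicate block gave 1 of 13328 genes higher there and 0 lower. With the replicate block Ankrd23 at 72 h against 24 h also lost its call (adjusted p = 0.0529). With 1 mouse left out, 0 to 1 members were higher at 1 h, 3 to 7 at 6 h against 1 h, and 0 to 1 lower at 24 h against 6 h. Over all genes these runs gave 67 to 147 higher, 458 to 1321 higher and 1 to 354 lower.

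For Ankrd2, described without a test, a pseudocount of 0.1 gave -0.68, 5.60, 6.58 and 1.59 at 10 min, 6 h, 24 h and 72 h against sham and 6.05 at 6 h against 1 h. Against sham, quantile normalization gave 0.40 for 72 h, and centring gave 6.25 for 24 h and 2.55 for 72 h. Centring gave -3.70 for 72 h against 24 h. The cause of each change was not tested, apart from what the alternatives alter by construction. Levels under 1 FPKM, as of Ankrd2 before 6 h, are limited by depth, which is known here only in relative terms.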
